A study of Mus musculus with 16 samples.

Results

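The genes of mitosis and the spindle were followed in CD4+ T cells of mouse spleen, as a fixed list of 39 named genes out of 20660 genes with a probe on the array. The list covers the spindle checkpoint, the mitotic kinases, CDK1 with its cyclins, the anaphase-promoting complex, kinesins, kinetochore proteins, other spindle and cytokinesis proteins, and the transcription factor Foxm1. Each gene was read from 1 probe, the one with the highest mean over all 16 arrays, and all 39 genes passed the filter on dim probes that left 14675 genes for the tests. Signal was well above background on all 16 arrays for 32 of them and on fewer arrays for 7.

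Transcripts were measured with 1 Agilent 1-colour array per sample in 6 groups of male mice of 8 to 10 weeks. NEMO knockouts (NEMOfl/f with CD4cre) had 2 arrays with nephritis and 2 without, IKK2 knockouts (IKK2fl/fl with CD4cre) had 3 and 3, and Cre controls (labelled CD4cre alone) had 3 and 3. Nephritis (NTN) was induced with nephrotoxic sheep serum at 2.5 mg per g of body weight and tissue was taken on day 10, while the groups called untreated had no inflammation by their labels. NEMO is the regulatory and IKK2 a catalytic subunit of the kinase complex that switches on canonical NF-kB, and all groups, controls included, carry the Cre recombinase. Cre is driven by the CD4 promoter, which is also active while CD8 T cells develop, and the labels state that deletion was judged by PCR on sorted spleen cells. Whether each array had its own animal is not said, so p values below reflect the scatter among these samples only, and that scatter may be technical.

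The arrays lay on 3 slides. Slide 3 held the 4 NEMO knockout arrays and nothing else, so that slide and NEMO knockout cannot be told apart. Slide 1 held the nephritic Cre controls, the nephritic IKK2 knockouts and 2 untreated IKK2 knockouts, and slide 2 held the untreated Cre controls with the third untreated IKK2 knockout. Between 48.8% and 59.8% of spots per array were well above background, and arrays of a group correlated at 0.971 to 0.993 across genes. The NEMO knockout arrays had the highest shares, from 57.9% upward. They also had the lowest net signal of negative controls, at most 17.7, whereas every slide 1 array had at least 40.5. Slide 2 arrays lay between, none above 22.4. Whether this background difference affected calls of dim genes, and the bounds given below, was not tested. The 10 markers listed for CD4 T cells were well above background in every group. Most of them, such as Cd3e, are shared by other T cells, so they do not show CD4 purity. Nephritic Cre control replicate 2 stood apart on the third principal component. Without it and untreated Cre control replicate 1, the counts of higher genes given below were again 36 and 36 for the NEMO knockouts against controls, 27 for untreated IKK2 knockouts, and 1 for nephritis in Cre controls. Of all genes, 18.6% and 19.4% were then higher in nephritic and untreated NEMO knockouts. The shares were 7.06% in untreated IKK2 knockouts and 0.279% for nephritis in Cre controls. Ikbkg, the NEMO gene, read a log2 level, relative to the array's 75th percentile, of -0.71 to -0.59 in nephritic NEMO knockouts against -0.40 to -0.26 in nephritic controls (log2 difference -0.34, adjusted p = 0.0196), and -0.94 to -0.74 against -0.85 to -0.52 without nephritis (-0.13, adjusted p = 0.337). Ikbkb, the IKK2 gene, read 2.91 to 3.02 in nephritic IKK2 knockouts against 3.18 to 3.45 in nephritic controls (-0.34, adjusted p = 0.134), and 2.88 to 3.31 against 3.29 to 3.31 without (-0.24, adjusted p = 0.162). Whether these probes lie in the floxed exons is not known here, so they do not check the deletion.

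Mitosis separates the copied chromosomes into the daughter cells. CDK1 bound to cyclin B drives entry, kinetochores on the centromeres attach to spindle microtubules, and the spindle checkpoint holds the anaphase-promoting complex in check until every chromosome is attached. That complex, a ubiquitin ligase, then destroys securin and cyclin B, separase cuts the cohesin rings, and cytokinesis divides the cell. Most genes of this machinery are transcribed in late S, G2 and M phase, when the MuvB proteins with B-MYB and FOXM1 bind their promoters, and are kept silent in resting cells by MuvB within the DREAM complex, which docks at the cell cycle genes homology region (CHR). Resting T cells of the spleen are mostly outside the cycle, and clonal expansion brings these genes up.

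Promoter windows from RefSeq (GRCm38.p6, 250 bases before and 50 after each annotated start) were at hand for 32 of the 39 genes, as 35 windows. The letters TTTGAA, the core of the CHR, and CCAAT, the box bound by NF-Y, were searched on both strands, and a base shared by overlapping matches was counted for each. TTTGAA stood in 26 of the 35 windows, which is 74.3%, against 17.9% of all 32851 windows in the table. CCAAT stood in 27 windows, or 77.1%, against 37.4% of all. Both were present in 65.7% of the windows, against 6.95% of all. The windows of Ect2, Prc1 and Bub3 come in overlapping pairs, so a match can count in both. A second list of mitosis genes held TTTGAA in 47.7% of 86 windows, and DNA replication genes held it in 11.1% of 36. These are counts of letters, not of bound sites. Other forms of the CHR were not searched, so a window without TTTGAA is not shown to lack a CHR.

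**Figure D1:**
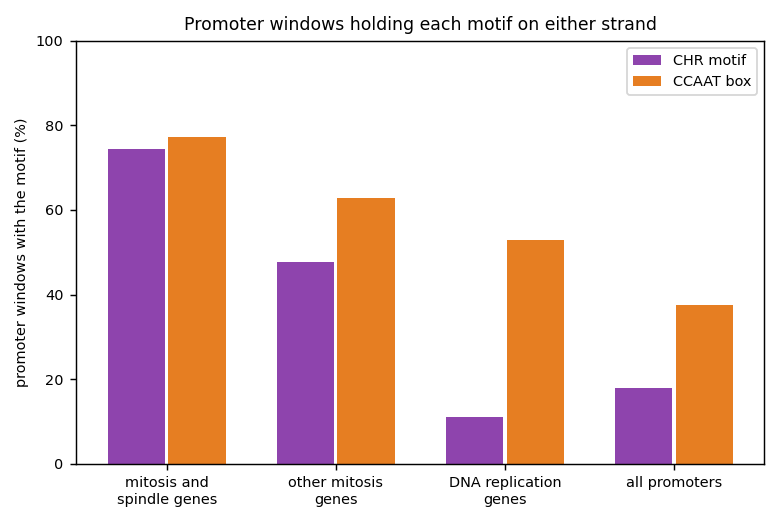
Share of promoter windows (y axis, %) that hold the CHR letters (purple) or the CCAAT box (orange) on either strand, for the mitosis and spindle genes, the other mitosis genes, DNA replication genes and all promoters. The CHR bars stand at 74.3%, 47.7%, 11.1% and 17.9%.

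The 6 windows are shown because they carry both motifs beside a change, both motifs without the general change, or no TTTGAA beside a large change. Capitals mark TTTGAA and CCAAT or their reverse complements, TTCAAA and ATTGG, and each sequence runs 5′ to 3′ on the gene's strand. The first 4 belong to genes that were higher in NEMO knockouts: Cdk1 (chr10:69352863-69353162, minus strand), the cyclin gene Ccnb2 (chr9:70421505-70421804, minus strand), Cdc20 (chr4:118437294-118437593, minus strand) and Plk1 (chr7:122159185-122159484, plus strand). Bub3 (chr7:131560120-131560419, plus strand, the first of 2 windows in the table) holds both motifs and was close to its control level in NEMO knockouts. Bub1 (chr2:127831810-127832109, minus strand) holds CCAAT but no TTTGAA and had one of the largest differences.
Cdk1: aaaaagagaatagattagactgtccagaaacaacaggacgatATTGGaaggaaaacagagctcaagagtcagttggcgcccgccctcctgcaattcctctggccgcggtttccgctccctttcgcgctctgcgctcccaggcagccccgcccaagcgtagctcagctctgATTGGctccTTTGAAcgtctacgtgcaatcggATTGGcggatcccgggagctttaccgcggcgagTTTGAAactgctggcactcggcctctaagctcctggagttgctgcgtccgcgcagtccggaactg
Ccnb2: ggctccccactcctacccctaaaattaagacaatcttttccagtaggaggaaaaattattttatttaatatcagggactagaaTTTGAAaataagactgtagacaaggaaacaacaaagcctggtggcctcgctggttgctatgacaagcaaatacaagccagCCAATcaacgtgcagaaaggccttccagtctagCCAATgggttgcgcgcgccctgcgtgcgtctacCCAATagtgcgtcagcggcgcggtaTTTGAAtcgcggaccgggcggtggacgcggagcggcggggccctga
Cdc20: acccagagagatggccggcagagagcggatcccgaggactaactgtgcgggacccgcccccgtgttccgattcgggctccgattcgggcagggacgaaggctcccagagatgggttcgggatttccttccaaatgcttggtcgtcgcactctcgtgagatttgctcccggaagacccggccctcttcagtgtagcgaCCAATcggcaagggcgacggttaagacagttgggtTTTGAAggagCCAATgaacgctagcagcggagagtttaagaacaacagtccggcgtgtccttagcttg
Plk1: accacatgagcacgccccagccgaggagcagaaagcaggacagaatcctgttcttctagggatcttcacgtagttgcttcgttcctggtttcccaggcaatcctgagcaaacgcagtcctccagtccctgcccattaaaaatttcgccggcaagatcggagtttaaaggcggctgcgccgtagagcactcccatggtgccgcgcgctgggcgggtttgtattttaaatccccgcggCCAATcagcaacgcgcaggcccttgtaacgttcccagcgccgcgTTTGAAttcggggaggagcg
Bub3: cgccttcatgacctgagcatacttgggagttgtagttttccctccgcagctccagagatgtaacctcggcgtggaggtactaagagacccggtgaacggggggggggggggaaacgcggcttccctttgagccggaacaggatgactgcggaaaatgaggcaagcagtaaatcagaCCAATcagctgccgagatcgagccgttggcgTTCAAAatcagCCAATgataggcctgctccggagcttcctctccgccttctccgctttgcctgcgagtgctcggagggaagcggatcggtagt
Bub1: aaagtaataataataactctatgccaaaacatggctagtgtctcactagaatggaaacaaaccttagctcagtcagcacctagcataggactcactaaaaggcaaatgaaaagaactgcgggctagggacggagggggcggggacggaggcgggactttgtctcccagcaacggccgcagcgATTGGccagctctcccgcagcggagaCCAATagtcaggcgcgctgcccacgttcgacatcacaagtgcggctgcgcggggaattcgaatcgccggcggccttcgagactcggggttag

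Genes with and without TTTGAA had similar ranges of difference. Untreated NEMO knockouts differed from Cre controls by a median log2 value of 3.09 (0.16 to 3.86) over the 23 genes with TTTGAA and of 3.20 (0.29 to 3.64) over the 9 with a window but without it. For untreated IKK2 knockouts the medians were 1.30 and 1.10. These groups of genes were not tested against each other.

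Mitosis genes were far higher in NEMO knockout T cells than in Cre controls, in both conditions. With nephritis 36 of the 39 genes were higher at an adjusted p of 0.05 (limma, Benjamini-Hochberg over all 14675 genes) and none was lower, where 18.8% of all genes tested were higher and 29.6% lower. The median log2 difference was 2.66, against -0.14 over all genes. Without nephritis the count was again 36 higher and none lower, where 21.0% of all genes were higher and 22.0% lower, with a median of 3.13 against -0.06. Every NEMO knockout array lay above every control array of its condition for 37 genes with nephritis, where 26.7% of all genes did so, and for 38 without, where 30.8% did. The 3 genes that did not pass were Bub3, Pttg1 and Cenpf, and Fzr1 passed with small differences. All 4 NEMO knockout arrays lay above all 12 other arrays for 37 of the 39 genes, which held for 14.3% of all genes. In these bulk samples, more cells in division and more RNA per dividing cell cannot be told apart, just as fewer cells of a type and less RNA per cell cannot.

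IKK2 knockouts stood between. Without nephritis 32 of the 39 genes were higher than in Cre controls and none lower, where 10.0% of all genes were higher and 4.52% lower, and the median log2 difference was 1.30, against 0.05 over all genes. Arrays of the groups were fully separated upward for 33 genes, where 18.9% of all genes were. With nephritis none passed in either direction by limma (12 had an unadjusted p under 0.05), where 0.995% of all genes were higher and 1.59% lower. The median was 0.25, 33 differences were positive, and 8 genes were fully separated upward, where 9.70% of all genes were. Set directly against IKK2 knockouts, NEMO knockouts had 37 genes higher with nephritis (median 2.14), where 19.0% of all genes were higher and 27.1% lower. Without nephritis 37 were higher (median 1.83), where 15.4% were higher and 19.9% lower. Full upward separation held for 38 genes with nephritis, where 29.8% of all genes showed it, and for 37 without, where 24.7% did. Bub3 and Cenpf did not pass in either condition. These comparisons share arrays with those against the controls.

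**Figure D2:**
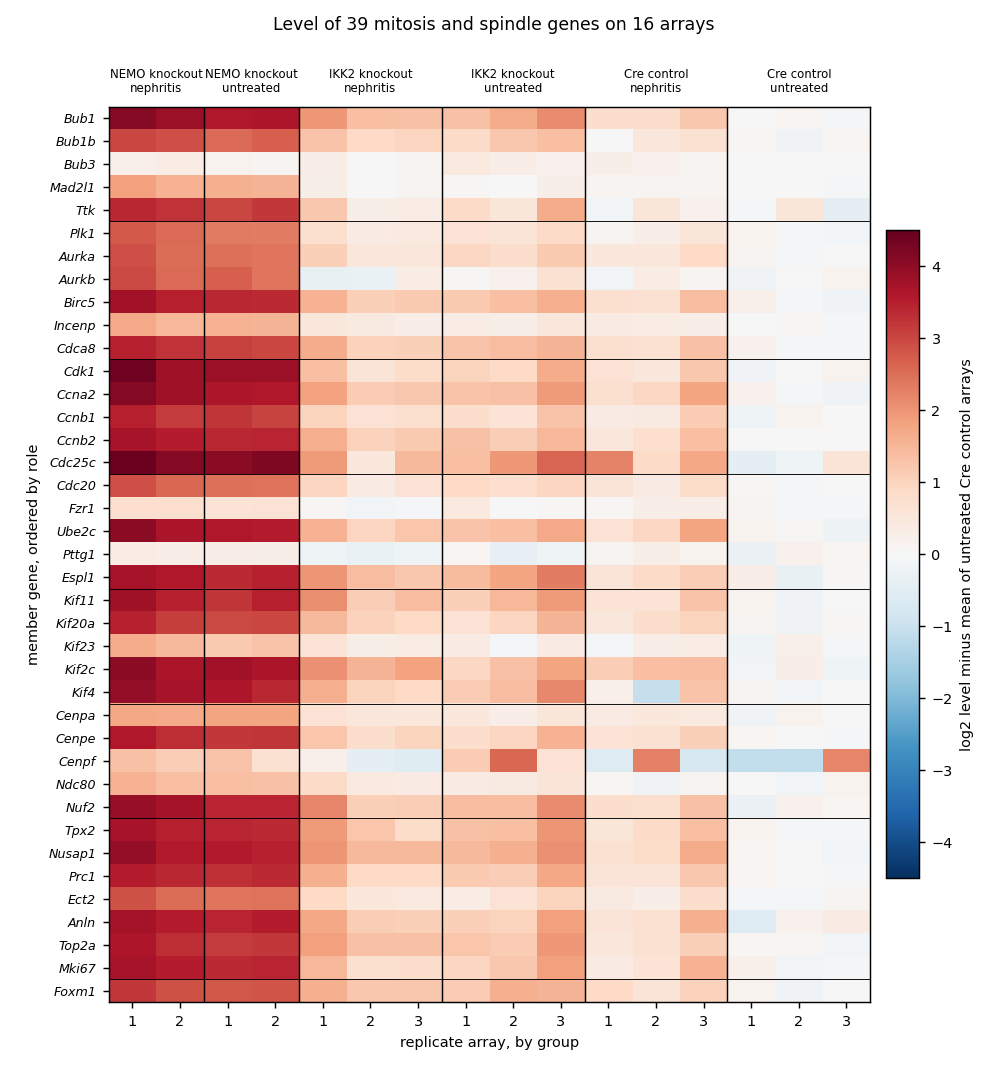
Level of each of the 39 genes (rows, by role) on each of the 16 arrays (columns, by group), as log2 level minus the mean of the untreated Cre controls; red is higher and blue lower. The 4 NEMO knockout columns hold the highest values for 37 genes, while Bub3 and Cenpf do not follow, and the 6 IKK2 knockout columns are mostly paler red.

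The order of the 6 group means was much the same from gene to gene. Nephritic NEMO knockouts had the highest mean for 36 genes and untreated NEMO knockouts the next for 36. Untreated Cre controls had the lowest mean for 35 genes. The IKK2 knockouts and the nephritic Cre controls lay between them, with untreated IKK2 knockouts above nephritic Cre controls for 36 genes and nephritic IKK2 knockouts above them for 33. Neighbouring groups in this order were often not separable, since neither nephritis within a knockout nor IKK2 knockout under nephritis gave a passing gene. Within-group standard deviations had a median of 0.20 on the log2 scale. All 3 untreated Cre control arrays lay below the 13 others for 26 genes, and NEMO knockout replicate 1 with nephritis was the highest array for 35. Shares of all genes were not worked out for the counts in this paragraph. Whether such an order is particular to the mitosis genes was therefore not tested.

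Levels below are log2 values relative to the 75th percentile of the same array, so that 0 is the signal of a gene at that percentile, and they are not compared between genes. Differences are log2 values with the standard error of the model.

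Of the 5 spindle checkpoint genes, 4 were higher in NEMO knockouts in each condition and 3 in untreated IKK2 knockouts. Bub1 encodes a kinase that recruits the checkpoint to kinetochores. Its level with nephritis was 0.25 and 0.03 in NEMO knockouts, -1.90, -2.47 and -2.53 in IKK2 knockouts and -3.06, -3.06 and -2.61 in Cre controls. Without nephritis it was -0.22 and -0.18 in untreated NEMO knockouts, -2.52, -2.17 and -1.72 in untreated IKK2 knockouts and -3.84, -3.76 and -3.90 in untreated Cre controls. No knockout array overlapped the control arrays of its condition, and the NEMO knockouts lay far above the rest. Bub1 was higher by 3.05 ± 0.23 in nephritic NEMO knockouts, or 8.29-fold (adjusted p = 2.1e-06), by 3.64 ± 0.23 in untreated ones (adjusted p = 8.67e-07) and by 1.70 ± 0.21 in untreated IKK2 knockouts (adjusted p = 0.000796). In nephritic IKK2 knockouts its difference of 0.61 did not pass (adjusted p = 0.161).

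Bub3, which binds BUB1 and BUBR1 and brings them to the kinetochore, differed little between the groups. With nephritis its level was 4.05 and 4.15 in NEMO knockouts, 4.10, 3.82 and 3.95 in IKK2 knockouts and 4.07, 4.02 and 3.92 in Cre controls. Without nephritis it was 3.99 and 3.96 in untreated NEMO knockouts, 4.26, 4.11 and 4.02 in untreated IKK2 knockouts and 3.85, 3.79 and 3.81 in untreated Cre controls, so that all nephritic groups overlapped and the untreated controls lay just below the other untreated groups. It passed only in untreated IKK2 knockouts, at 0.32 ± 0.09 (adjusted p = 0.0302), and its differences in nephritic and untreated NEMO knockouts were 0.10 ± 0.10 and 0.16 ± 0.10. Bub1b, which encodes the checkpoint protein BUBR1, was higher by 2.54 and 2.63 in nephritic and untreated NEMO knockouts and by 1.14 in untreated IKK2 knockouts. Mad2l1, the gene of the inhibitor that binds CDC20, was higher by 1.58 and 1.56 in nephritic and untreated NEMO knockouts. In untreated IKK2 knockouts its difference was 0.10 on the chosen probe (adjusted p = 0.524), whereas its 2 other probes gave 0.61 (adjusted p = 0.0176) and 0.79 (adjusted p = 0.0222). Ttk, the gene of the kinase MPS1 that starts the checkpoint signal, was not well above background in any Cre control array. It was at least 2.48-fold higher in nephritic and at least 2.75-fold higher in untreated NEMO knockouts than in Cre controls (adjusted p = 4.81e-05 and 5.24e-05), but its log2 differences of 0.30 and 0.29 with another background correction (normexp) did not pass. Normexp was run with an offset of 50 added to every signal, which shrinks the differences of dim probes. For such probes its result therefore cannot decide whether the groups differ. An "at least" fold sets the mean of the bright group against a floor, the mean over the dim arrays of the higher of the probe's own signal and the lowest signal well above background on that array.

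All 6 genes of the mitotic kinases and the chromosomal passenger complex were higher in NEMO knockouts in both conditions, and 5 were higher in untreated IKK2 knockouts. Plk1, the kinase that acts from mitotic entry to cytokinesis, had a level with nephritis of 3.83 and 3.62 in NEMO knockouts, 1.78, 1.41 and 1.49 in IKK2 knockouts and 1.19, 1.36 and 1.60 in Cre controls. Without, the level was 3.39 and 3.37 in untreated NEMO knockouts, 1.72, 1.62 and 1.93 in untreated IKK2 knockouts and 1.21, 1.02 and 0.94 in untreated Cre controls. NEMO knockouts were above all others, and nephritic IKK2 knockouts overlapped nephritic controls. Plk1 was higher by 2.34 ± 0.15 and 2.33 ± 0.15 in nephritic and untreated NEMO knockouts (adjusted p = 6.02e-07 and 8.67e-07) and by 0.70 ± 0.13 in untreated IKK2 knockouts (adjusted p = 0.00628).

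Birc5 encodes survivin, the subunit that places the passenger complex on centromeres. Under nephritis it stood at 5.71 and 5.41 in NEMO knockouts, 3.49, 2.99 and 3.09 in IKK2 knockouts and 2.63, 2.59 and 3.30 in Cre controls. Otherwise it stood at 5.30 and 5.28 in untreated NEMO knockouts, 3.09, 3.28 and 3.54 in untreated IKK2 knockouts and 2.13, 1.87 and 1.75 in untreated Cre controls. The third nephritic control reached into the range of the IKK2 knockouts, and the NEMO knockouts were apart from both. Its differences were 2.72 ± 0.23 and 3.38 ± 0.23 in nephritic and untreated NEMO knockouts (adjusted p = 3.2e-06 and 9.62e-07) and 1.39 ± 0.20 in untreated IKK2 knockouts (adjusted p = 0.00179). Incenp, the scaffold of the same complex, had the smallest NEMO knockout difference of the group, with nephritic levels of 5.30 and 5.12 in NEMO knockouts, 4.12, 4.01 and 3.91 in IKK2 knockouts and 3.98, 3.93 and 3.92 in Cre controls. The other levels were 5.19 and 5.13 in untreated NEMO knockouts, 3.94, 3.89 and 4.11 in untreated IKK2 knockouts and 3.61, 3.68 and 3.55 in untreated Cre controls. Nephritic and untreated NEMO knockouts were again separate at 1.27 ± 0.09 and 1.55 ± 0.09 (adjusted p = 1.28e-06 and 6.01e-07), and untreated IKK2 knockouts differed by 0.37 ± 0.08 (adjusted p = 0.0123).

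Cdca8, the gene of borealin, was higher by 2.47 and 3.05 in nephritic and untreated NEMO knockouts and by 1.40 in untreated IKK2 knockouts. Aurka, the gene of the centrosome and spindle kinase Aurora A, was higher by 2.08, 2.45 and 0.96 in the same comparisons. Aurkb, the gene of the catalytic subunit of the passenger complex, was well above background in the NEMO knockouts alone. All of them lay on slide 3, whose negative controls read lowest. Aurkb was at least 1.85-fold higher in them than in Cre controls with nephritis and at least 2.05-fold higher without (adjusted p = 6.28e-06 and 9.25e-06). Neither passed with normexp background correction, where its log2 differences were 0.03 and 0.11, but the offset shrinks differences of a probe this dim.

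CDK1, its cyclins and its activating phosphatase were all higher, 5 of 5 genes, in NEMO knockouts in each condition and in untreated IKK2 knockouts. Ccnb1, which encodes cyclin B1, the partner that CDK1 needs for mitotic entry, had levels with nephritis of 2.51 and 2.18 in NEMO knockouts, 0.03, -0.33 and -0.26 in IKK2 knockouts and -0.59, -0.56 and 0.15 in Cre controls. Its levels were 2.22 and 2.08 in untreated NEMO knockouts, -0.18, -0.35 and 0.31 in untreated IKK2 knockouts and -1.17, -0.81 and -0.96 in untreated Cre controls. IKK2 knockouts were clear of the controls without nephritis but overlapped them with it. The difference was 2.68 ± 0.24 and 3.13 ± 0.24 in nephritic and untreated NEMO knockouts, or 6.4-fold and 8.74-fold (adjusted p = 5.97e-06 and 2.36e-06), and 0.90 ± 0.22 in untreated IKK2 knockouts (adjusted p = 0.0183). Its 2 other probes gave larger untreated differences, 4.003 and 3.95 in NEMO and 1.77 and 1.68 in IKK2 knockouts, all passing.

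Cdc25c, the phosphatase gene whose product removes the inhibitory phosphates of CDK1, was dim in the controls. Nephritic arrays gave -1.76 and -2.05 in NEMO knockouts, -4.25, -5.71 and -4.72 in IKK2 knockouts and -3.93, -5.32 and -4.43 in Cre controls. The rest gave -2.10 and -1.99 in untreated NEMO knockouts, -4.84, -4.22 and -3.56 in untreated IKK2 knockouts and -6.57, -6.37 and -5.60 in untreated Cre controls. No untreated Cre control array was well above background and only the third untreated IKK2 knockout array was, so the untreated comparisons give bounds. Cdc25c was at least 6.26-fold higher in untreated NEMO knockouts (adjusted p = 5.09e-05) and at least 1.40-fold higher in untreated IKK2 knockouts (adjusted p = 0.014), and the IKK2 call did not pass with normexp or in the authors' deposited matrix. In nephritic NEMO knockouts the difference was 2.66 ± 0.50 (adjusted p = 0.00109), with 1 of 3 control arrays well above background. Cdk1 itself was higher by 3.32 and 3.86 in nephritic and untreated NEMO knockouts and by 1.19 in untreated IKK2 knockouts. Of its 2 other probes, one gave 3.18, 3.62 and 0.77 in these comparisons and the other gave -0.20, -0.01 and -0.79, and of these 6 values the first 2 passed. Ccna2, the gene of the S and G2 cyclin A2, was higher by 2.81, 3.63 and 1.5, and the cyclin B2 gene Ccnb2 by 2.75, 3.41 and 1.30.

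The anaphase-promoting complex group was split. Its mitotic activator Cdc20, its ubiquitin-conjugating enzyme Ube2c and the separase gene Espl1 were higher in NEMO knockouts in both conditions and in untreated IKK2 knockouts, whereas the G1 activator Fzr1 differed little and the securin gene Pttg1 did not pass against the controls. Ube2c with nephritis had 3.22 and 2.86 in NEMO knockouts, 0.73, 0.14 and 0.40 in IKK2 knockouts and -0.19, 0.11 and 0.95 in Cre controls. It had 2.79 and 2.72 in untreated NEMO knockouts, 0.46, 0.52 and 0.87 in untreated IKK2 knockouts and -0.66, -0.76 and -1.07 in untreated Cre controls. The third nephritic control was above all nephritic IKK2 knockouts for this gene, and the NEMO knockouts were above every other array. Its differences were 2.75 ± 0.29 and 3.58 ± 0.29 in nephritic and untreated NEMO knockouts (adjusted p = 1.74e-05 and 2.96e-06) and 1.44 ± 0.26 in untreated IKK2 knockouts (adjusted p = 0.00479). Espl1 was higher by 2.82, 3.42 and 1.84 in these comparisons and Cdc20 by 2.17, 2.47 and 0.87.

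Fzr1 encodes CDH1, which keeps the complex active from mitotic exit through G1, so that it works in cells that are not dividing. Nephritic levels were 3.27 and 3.29 in NEMO knockouts, 2.58, 2.39 and 2.43 in IKK2 knockouts and 2.59, 2.81 and 2.82 in Cre controls. It was at 3.15 and 3.19 in untreated NEMO knockouts, 2.97, 2.55 and 2.60 in untreated IKK2 knockouts and 2.64, 2.48 and 2.47 in untreated Cre controls. The groups lay close together, with the NEMO knockouts on top. It was higher by 0.54 ± 0.12 and 0.64 ± 0.12 in nephritic and untreated NEMO knockouts (adjusted p = 0.00381 and 0.0015), and the IKK2 knockout differences of -0.27 and 0.18 with and without nephritis did not pass. Pttg1, the gene of the securin that holds separase inactive, had nephritic levels of 5.44 and 5.40 in NEMO knockouts, 4.92, 4.80 and 4.91 in IKK2 knockouts and 5.21, 5.36 and 5.27 in Cre controls. It was at 5.41 and 5.38 in untreated NEMO knockouts, 5.18, 4.75 and 4.91 in untreated IKK2 knockouts and 4.83, 5.28 and 5.19 in untreated Cre controls. The NEMO knockout arrays were the highest of their condition by a narrow margin, at 0.14 ± 0.14 and 0.29 ± 0.14 against the controls with and without nephritis (adjusted p = 0.438 and 0.111), and nephritic IKK2 knockouts lay below all nephritic controls at -0.40 ± 0.12 (adjusted p = 0.121). Against IKK2 knockouts, the NEMO knockouts were higher for Pttg1 by 0.54 ± 0.14 with and 0.45 ± 0.14 without nephritis (adjusted p = 0.00757 and 0.0257).

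**Figure D3:**
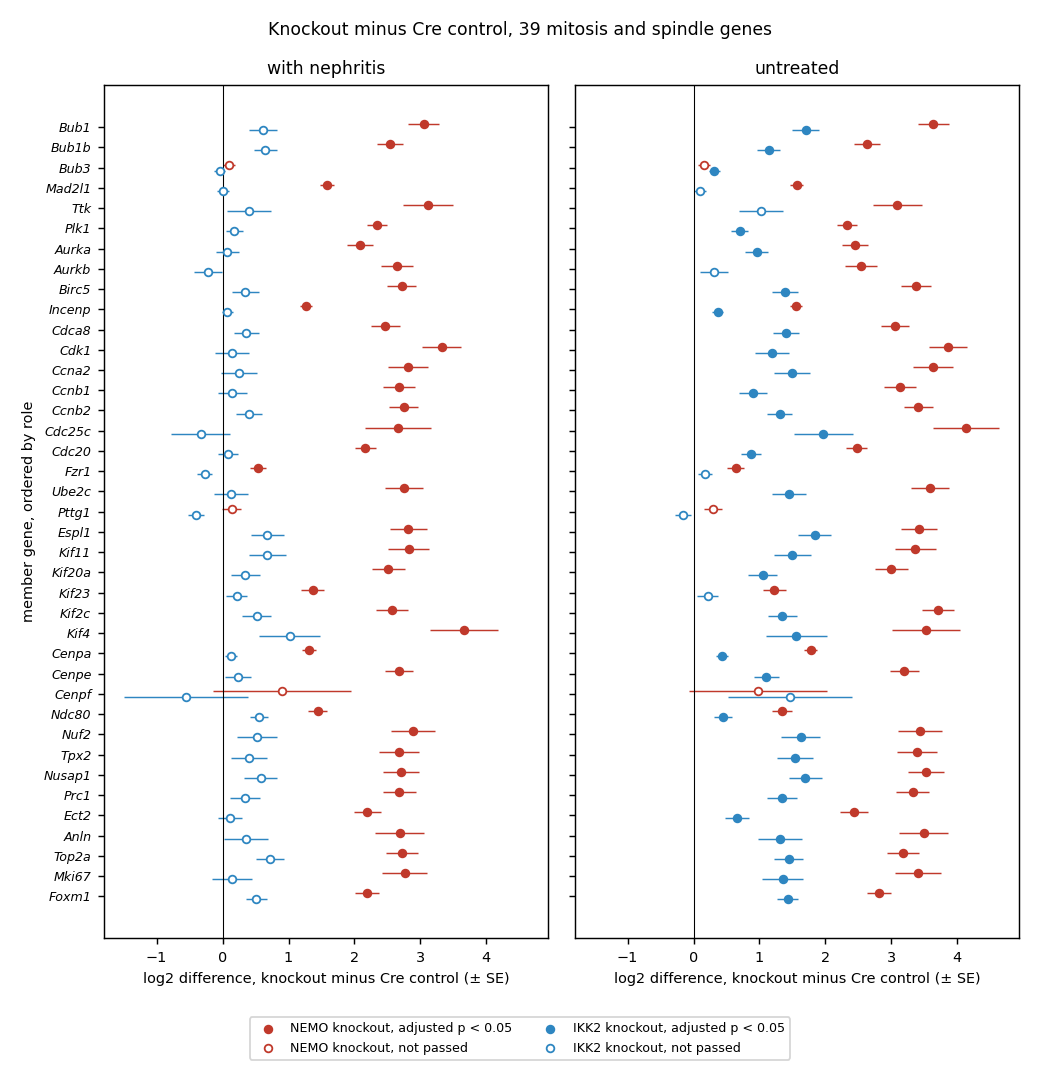
Log2 difference of each gene (y axis, by role) between knockout and Cre control (x axis, with standard error), with nephritis on the left and untreated on the right; red is NEMO knockout, blue IKK2 knockout, and filled points passed an adjusted p of 0.05. Of 39 genes, 36 red points are filled in each panel, against 0 blue points with nephritis and 32 untreated.

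All 5 kinesin genes were higher in NEMO knockouts in both conditions, and 4 were in untreated IKK2 knockouts. Kif2c encodes MCAK, which pulls wrong attachments off kinetochores by unravelling microtubules. With nephritis its level was -0.83 and -1.19 in NEMO knockouts, -2.80, -3.33 and -3.06 in IKK2 knockouts and -3.77, -3.49 and -3.47 in Cre controls. It was -1.10 and -1.20 in untreated NEMO knockouts, -3.93, -3.53 and -3.08 in untreated IKK2 knockouts and -4.98, -4.55 and -5.06 in untreated Cre controls, with untreated control replicates 1 and 3 not well above background. The NEMO knockouts stood apart, and every nephritic array of every genotype was above the untreated controls. The differences were 2.57 ± 0.24 and 3.71 ± 0.24 in nephritic and untreated NEMO knockouts (adjusted p = 7.76e-06 and 8.97e-07) and 1.35 ± 0.22 in untreated IKK2 knockouts (adjusted p = 0.00277). Kif23, the motor subunit of centralspindlin in cytokinesis, differed least, with nephritic levels of 0.87 and 0.68 in NEMO knockouts, -0.17, -0.52 and -0.44 in IKK2 knockouts and -0.83, -0.48 and -0.47 in Cre controls. It otherwise had 0.37 and 0.49 in untreated NEMO knockouts, -0.44, -0.87 and -0.42 in untreated IKK2 knockouts and -0.97, -0.57 and -0.83 in untreated Cre controls. It was higher by 1.37 ± 0.17 and 1.22 ± 0.17 in nephritic and untreated NEMO knockouts (adjusted p = 7.05e-05 and 0.000173), while the IKK2 knockouts overlapped the controls at 0.21 and 0.21 with and without nephritis, neither passing. Kif11, the motor that pushes the spindle poles apart, was higher by 2.82, 3.36 and 1.5 in nephritic NEMO, untreated NEMO and untreated IKK2 knockouts. Kif20a, a motor of the central spindle, differed by 2.52, 3.0 and 1.05 and the chromosome motor Kif4 by 3.67, 3.52 and 1.56, all passing.

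Among the 5 centromere and kinetochore genes, 4 were higher in NEMO knockouts in each condition and the same number in untreated IKK2 knockouts. Nuf2, a subunit of the NDC80 complex that grips microtubules, had nephritic levels of 0.32 and 0.14 in NEMO knockouts, -1.39, -2.51 and -2.47 in IKK2 knockouts and -2.81, -2.88 and -2.27 in Cre controls. Its other levels were -0.15 and -0.15 in untreated NEMO knockouts, -2.20, -2.21 and -1.47 in untreated IKK2 knockouts and -3.86, -3.41 and -3.49 in untreated Cre controls. The first nephritic IKK2 knockout and the third untreated one were the highest of their genotype, and both remained below the NEMO knockouts. Its differences were 2.88 ± 0.33 and 3.43 ± 0.33 in nephritic and untreated NEMO knockouts (adjusted p = 3.52e-05 and 1.06e-05) and 1.63 ± 0.30 in untreated IKK2 knockouts (adjusted p = 0.00528). Its partner Ndc80 differed by less, 1.44, 1.34 and 0.45 in the same comparisons, all passing. Cenpe, a kinetochore motor, was higher by 2.68, 3.20 and 1.10, and Cenpa, the histone H3 variant that marks centromeres, by 1.31, 1.78 and 0.43. Cenpf, a large kinetochore protein gene, was dim and scattered widely, with nephritic levels of -4.20 and -4.40 in NEMO knockouts, -5.27, -5.92 and -6.06 in IKK2 knockouts and -6.10, -3.26 and -6.23 in Cre controls. It had -4.24 and -4.83 in untreated NEMO knockouts, -4.36, -2.92 and -4.86 in untreated IKK2 knockouts and -6.60, -6.62 and -3.32 in untreated Cre controls. Single arrays of 3 groups were high beside dim replicates, the groups overlapped, and neither 0.90 ± 1.05 nor 0.98 ± 1.05 in nephritic and untreated NEMO knockouts passed (adjusted p = 0.503 and 0.481).

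The 7 genes of other spindle, chromosome and cytokinesis proteins were all higher in NEMO knockouts in both conditions and in untreated IKK2 knockouts. Nusap1, which bundles spindle microtubules around chromosomes, had nephritic levels of 2.43 and 2.07 in NEMO knockouts, 0.49, -0.06 and -0.06 in IKK2 knockouts and -0.83, -0.68 and 0.14 in Cre controls. Without nephritis the gene stood at 2.06 and 1.95 in untreated NEMO knockouts, -0.05, 0.07 and 0.53 in untreated IKK2 knockouts and -1.43, -1.49 and -1.62 in untreated Cre controls. The third nephritic control was level with the IKK2 knockouts, and the other controls were lower. Nusap1 was higher by 2.71 ± 0.28 and 3.52 ± 0.28 in nephritic and untreated NEMO knockouts, or 6.52-fold and 11.5-fold (adjusted p = 1.42e-05 and 2.44e-06), and by 1.70 ± 0.25 in untreated IKK2 knockouts (adjusted p = 0.00179). Ect2, the exchange factor that sets up the cleavage furrow, differed least of the 7. With nephritis it had 1.29 and 0.93 in NEMO knockouts, -0.69, -1.10 and -1.13 in IKK2 knockouts and -1.16, -1.29 and -0.79 in Cre controls. Without, it had 0.84 and 0.87 in untreated NEMO knockouts, -1.25, -0.93 and -0.59 in untreated IKK2 knockouts and -1.61, -1.66 and -1.45 in untreated Cre controls. The IKK2 knockouts overlapped the controls with nephritis but not without it. Its differences were 2.19 ± 0.21 and 2.43 ± 0.21 in nephritic and untreated NEMO knockouts (adjusted p = 7.91e-06 and 4.22e-06) and 0.66 ± 0.18 in untreated IKK2 knockouts (adjusted p = 0.0355).

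Mki67, whose product Ki-67 coats mitotic chromosomes and serves as the usual stain for cycling cells, was at 5.38 and 5.20 in NEMO knockouts, 3.17, 2.40 and 2.46 in IKK2 knockouts and 2.06, 2.30 and 3.24 in Cre controls with nephritis. It was at 5.05 and 5.12 in untreated NEMO knockouts, 2.66, 2.90 and 3.54 in untreated IKK2 knockouts and 1.91, 1.54 and 1.58 in untreated Cre controls. The third nephritic control was above every nephritic IKK2 knockout, while the NEMO knockouts were well clear of all. It was higher by 2.76 ± 0.35 and 3.41 ± 0.35 in nephritic and untreated NEMO knockouts, or 6.77-fold and 10.6-fold (adjusted p = 6.49e-05 and 1.52e-05), and by 1.35 ± 0.31 in untreated IKK2 knockouts (adjusted p = 0.0149). Top2a, the topoisomerase that disentangles sister DNA, was higher by 2.72, 3.18 and 1.45. Tpx2, which activates Aurora A on the spindle, was higher by 2.67, 3.39 and 1.54 in the same comparisons. Its other probe gave 2.43 and 2.42, both passing, and 0.37, which did not pass (adjusted p = 0.69). In these comparisons the midzone bundler Prc1 was higher by 2.68, 3.32 and 1.34, and the furrow scaffold Anln by 2.69, 3.49 and 1.31.

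Foxm1 encodes the transcription factor that activates many of the genes above in G2. Its nephritic level was 0.43 and 0.13 in NEMO knockouts, -1.15, -1.52 and -1.52 in IKK2 knockouts and -1.85, -2.16 and -1.71 in Cre controls. The gene was at 0.04 and 0.09 in untreated NEMO knockouts, -1.59, -1.15 and -1.20 in untreated IKK2 knockouts and -2.57, -2.90 and -2.76 in untreated Cre controls. No group of knockouts overlapped the controls of its condition. Foxm1 was higher by 2.19 ± 0.18 in nephritic NEMO knockouts, or 4.55-fold (adjusted p = 3e-06), by 2.81 ± 0.18 in untreated ones (adjusted p = 8.67e-07) and by 1.43 ± 0.16 in untreated IKK2 knockouts (adjusted p = 0.000467). With nephritis the IKK2 knockout difference was 0.51 ± 0.16 (adjusted p = 0.13). The other Foxm1 probe gave 3.42 in untreated NEMO and 2.98 in untreated IKK2 knockouts (adjusted p = 3.47e-05 and 0.000779).

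Nephritis was followed within each genotype. In Cre controls all 39 differences were positive with a median of 0.78, against 0.10 over all genes, and 12 genes were higher at an adjusted p of 0.05, where 2.56% of all genes were higher and 1.47% lower. All nephritic controls lay above all untreated ones for 29 genes, where 20.8% of all genes did so. The 12 genes were Bub1 (0.93), Birc5 (0.93), Incenp (0.33), Cdca8 (0.90), Ccna2 (1.15), Ccnb2 (0.88), Ube2c (1.12), Kif2c (1.28), Cenpa (0.42), Cenpe (0.78), Nusap1 (1.06) and Foxm1 (0.84). Kif2c was higher by 1.28 ± 0.22 (adjusted p = 0.0138) and Foxm1 by 0.84 ± 0.16 (adjusted p = 0.0219). Mki67 and Ccnb1 had differences of 0.86 and 0.64 that did not pass (adjusted p = 0.127 and 0.107). The 2 other probes of Ccnb1 gave 1.43, which passed (adjusted p = 0.0154), and 1.32, which did not (adjusted p = 0.137), and the other probe of Foxm1 gave 1.86 (adjusted p = 0.0195). The nephritic and untreated controls lay on different slides. With slide as a block, which rests on the IKK2 knockout arrays of slides 1 and 2, the median was 1.17 and 0 genes passed, where 0.0136% of all genes (2 of 14675) were higher. The count also fell to 1 without untreated control replicate 1, to 2 without replicate 2, to 1 without replicate 3, to 3 without nephritic control replicate 2 and to 1 without nephritic control replicate 3. The share of all genes that were higher was 0.504%, 1.25%, 0.729%, 0.831% and 1.02% in these fits.

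In the knockouts no gene passed by limma in either direction, and none had an unadjusted p under 0.05. In IKK2 knockouts 30 of 39 nephritis differences were negative with a median of -0.12, where 0.245% of all genes were higher and 0.198% lower, and on slide 1 alone the median was 0.01. None was fully separated upward, where 9.03% of all genes were. In NEMO knockouts 38 of 39 were positive with a median of 0.24, where 0.0545% of all genes were higher and 0.348% lower. Both nephritic NEMO knockouts lay above both untreated ones for 27 genes, a separation that 19.6% of all genes showed. The response in IKK2 knockouts minus that in Cre controls had a median of -0.83, and 38 of 39 genes were negative. None of them passed on the main probe (27 had an unadjusted p under 0.05), where 0.300% of all genes were higher and 0.831% lower. One other probe each of Foxm1 and Ccnb1 did pass, at -2.60 and -1.73 (adjusted p = 0.0453 and 0.0498). For NEMO knockouts minus Cre controls the median was -0.49 and none passed (3 at an unadjusted p under 0.05), where 0.0136% of all genes were higher and 0.252% lower. For NEMO minus IKK2 knockouts it was 0.36 and none passed (2 at an unadjusted p under 0.05), where 0.0204% were higher and 0.232% lower.

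**Figure D4:**
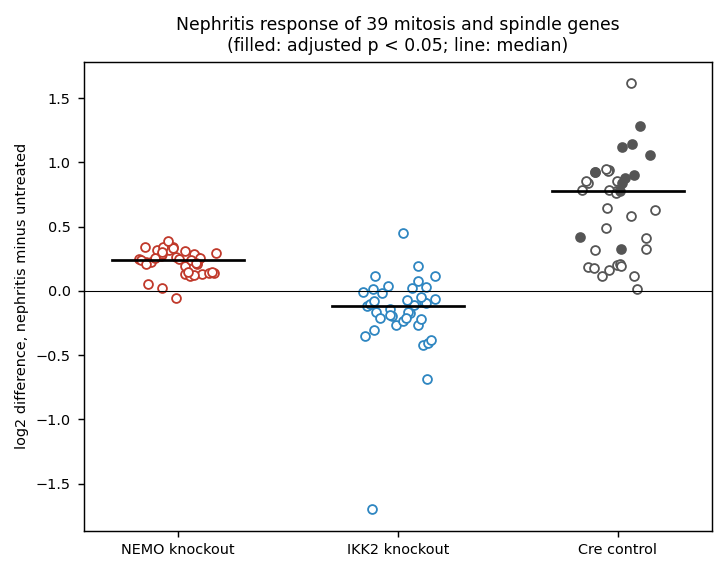
Log2 difference between nephritic and untreated arrays (y axis) for each of the 39 genes in NEMO knockouts, IKK2 knockouts and Cre controls (x axis); filled points passed an adjusted p of 0.05 and the bar is the median. The medians are 0.24, -0.12 and 0.78, and the 12 filled points are all in the Cre controls.

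The IKK2 knockout difference without nephritis also spans slides. On slide 2, where 1 untreated IKK2 knockout array faced the 3 untreated controls, the median was 1.54 and 10 genes passed: Bub1, Ccna2, Ccnb2, Cenpe, Kif11, Kif4, Nusap1, Prc1, Top2a and Tpx2. On that slide 1.17% of all genes were higher. The lone array had the highest median of the 3 untreated IKK2 knockouts, at 1.54 against 0.98 and 1.10, and is assumed to vary as the controls do. With slide as a block 30 genes passed, where 3.80% of all genes were higher. With nephritis all IKK2 knockout and control arrays lay on slide 1, and again none passed there. All NEMO knockout arrays lay on slide 3, so for them slide and genotype cannot be told apart.

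Other genes of mitosis, a list of 91 tested genes chosen by function, were mostly higher too. In nephritic NEMO knockouts 72 were higher and 7 lower (median 1.97), where 18.8% of all genes were higher and 29.6% lower. In untreated ones, where these shares were 21.0% and 22.0%, 73 were higher and 2 lower (median 2.30). Among them were Kif18b, a kinesin that trims spindle microtubules, Iqgap3, and Cit, the citron kinase gene of cytokinesis. None of these was well above background in untreated controls, and they were at least 12.7-fold, 7.35-fold and 6.43-fold higher in untreated NEMO knockouts (adjusted p = 3.16e-06, 3.75e-06 and 2.03e-05). Under nephritis they included Fam83d, at least 4.49-fold higher over controls at background, Spc24, an NDC80 complex subunit, at 3.63 ± 0.85, and Pimreg at 3.40 ± 0.19. Smc4, a condensin subunit gene, went the other way at -1.12 ± 0.10 and -0.97 ± 0.10 with and without nephritis, as did Anapc5, a scaffold subunit of the anaphase-promoting complex, at -0.50 and -0.43, and Cenpt, an inner kinetochore gene, at -0.61 with nephritis. In untreated IKK2 knockouts, where 10.0% of all genes were higher and 4.52% lower, 51 were higher and 1 lower (median 0.72). Among them were Kif18b, at least 5.13-fold higher, Iqgap3, at least 2.84-fold, and Cit, at least 1.35-fold, with Smc4 lower at -0.32. Cit was well above background on only 1 untreated IKK2 knockout array, so its bound also rests on dim values. In nephritic IKK2 knockouts Pimreg (1.05) and Tacc3 (0.49) were higher and Hjurp, the chaperone of CENP-A, was lower (-1.54). In Cre controls 17 were higher and 1 lower with nephritis (median 0.38), where 2.56% of all genes were higher and 1.47% lower. Kif18b was at least 1.89-fold and Iqgap3 at least 1.42-fold higher, each well above background on 2 nephritic control arrays, and Anapc2 was lower at -0.35.

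DNA replication genes, which act one phase earlier, differed in the same direction by less. Of 39 tested, 34 were higher and 1 lower in nephritic NEMO knockouts (median 0.92), and 33 were higher and 1 lower in untreated ones (median 0.81). The shares of all genes were 18.8% higher and 29.6% lower, and 21.0% and 22.0%. The leading genes in untreated NEMO knockouts were Rrm2 and Tk1, which supply nucleotides, at 3.19 ± 0.29 and 3.07 ± 0.29, and Mcm10, which helps start the fork, at 2.97 ± 0.24. Gins3 was lower, at -0.78 ± 0.15. In untreated IKK2 knockouts 20 were higher and 1 lower (median 0.33), where 10.0% of all genes were higher and 4.52% lower. In nephritic IKK2 knockouts E2f1 (0.72) and Gins1 (0.45) were higher.

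Markers of other cell types moved with the groups. Relative to the untreated Cre control mean, the per-array median of the 39 genes was 3.49 and 3.26 in nephritic and 3.16 and 3.19 in untreated NEMO knockouts. It was 1.44, 0.78 and 0.90 in nephritic and 0.98, 1.10 and 1.54 in untreated IKK2 knockouts, and 0.52, 0.59 and 1.06 in nephritic Cre controls. For the 10 B cell markers it was 1.44 and 1.03 in nephritic and 1.92 and 2.05 in untreated NEMO knockouts. It was 1.66, 2.09 and 1.94 in nephritic and 2.93, 2.18 and 1.99 in untreated IKK2 knockouts, and 0.81, 1.42 and 1.46 in nephritic Cre controls. For B cell markers the NEMO knockouts lay below the IKK2 knockouts with nephritis and overlapped them without, while for the mitosis genes they lay above them in both. Summed over the list, B cell signal relative to the array's 75th percentile was 8.99 to 10.0 and 11.6 to 12.7 in nephritic and untreated NEMO knockouts, 7.44 to 11.2 and 11.5 to 16.8 in nephritic and untreated IKK2 knockouts, and 4.70 to 8.42 and 2.97 to 3.89 in nephritic and untreated Cre controls. The same sum for CD4 T cell markers was 1305 to 1321 and 1326 to 1397 in nephritic and untreated NEMO knockouts, and 1360 to 1585 over all other arrays. Of those 10 markers 5 were lower in nephritic and 4 in untreated NEMO knockouts than in Cre controls, with medians of -0.29 and -0.23. Of all genes, 29.6% and 22.0% were lower in these comparisons. The B cell factor gene Pax5 was not well above background in NEMO knockouts or Cre controls, nor were Blk and Ebf1 in Cre controls.

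Called B cell markers numbered 1 of 10 higher in nephritic NEMO knockouts, 7 in untreated ones, 9 in untreated IKK2 knockouts and 3 with nephritis in Cre controls. Of all genes, 18.8%, 21.0%, 10.0% and 2.56% were higher in these comparisons. Between untreated NEMO and IKK2 knockouts, where 37 mitosis genes differed, no B cell marker passed and their median was -0.37. Of all genes, 15.4% were higher and 19.9% lower there. Plasma cell markers were higher in NEMO knockouts than in IKK2 knockouts. Their per-array median was 2.32 and 1.47 in nephritic and 1.46 and 1.72 in untreated NEMO knockouts. It was 0.16, 0.48 and -0.05 in nephritic and 0.28, 0.89 and 1.11 in untreated IKK2 knockouts, and 2.05, 0.28 and 0.78 in nephritic Cre controls. Against IKK2 knockouts, 5 of 6 plasma cell markers were higher in nephritic and 3 in untreated NEMO knockouts, and 2 of 9 myeloid markers were higher in nephritic and 0 in untreated ones. Of all genes, 19.0% and 15.4% were higher in these comparisons. Per-array myeloid medians were 2.68 to 3.17 and 1.73 to 2.37 in nephritic and untreated NEMO knockouts. They were 1.81 to 2.73 and 1.83 to 2.19 in nephritic and untreated IKK2 knockouts, and 0.82 to 2.18 in nephritic Cre controls. Summed myeloid signal did not follow these medians. It was 53.5 to 137 and 52.6 to 60.2 in nephritic and untreated NEMO knockouts, and 51.9 to 91.2 and 43.4 to 62.2 in IKK2 knockouts. In nephritic and untreated Cre controls it was 32.9 to 77.2 and 66.8 to 88.7, so untreated controls were above both untreated knockouts. Summed plasma cell signal was 53.6 to 96.2 and 47.2 to 51.9 in nephritic and untreated NEMO knockouts, 26.7 to 32.5 and 30.0 to 37.8 in nephritic and untreated IKK2 knockouts, and 26.0 to 75.5 and 19.2 to 22.0 in nephritic and untreated Cre controls. Erythroid markers, 10 genes of red cell precursors, had medians of 3.68 and 2.69 in nephritic and 1.54 and 1.29 in untreated NEMO knockouts. They had 2.87, 3.22 and 2.94 in nephritic and 3.22, 2.14 and 1.02 in untreated IKK2 knockouts, and -0.10, 3.48 and 5.66 in nephritic Cre controls. Among nephritic controls the third array had both the highest erythroid and the highest mitosis median, while in untreated IKK2 knockouts the array with the highest erythroid median had the lowest mitosis median. In untreated NEMO and untreated Cre control arrays Klf1 and Epb42 were not well above background. Against Cre controls, myeloid markers were higher for 5 of 9 genes in nephritic and 5 in untreated NEMO knockouts and for 7 in untreated IKK2 knockouts, and plasma cell markers for 3 of 6, 5 and 1. Of all genes, 18.8%, 21.0% and 10.0% were higher and 29.6%, 22.0% and 4.52% lower in these comparisons. Dendritic cell markers were higher for 3 of 5 genes, 4 and 2 in the same comparisons, and markers of CD8 T and NK cells for 5 of 8, 5 and 4, with 2, 2 and 1 lower. Per-array medians of dendritic cell markers were 3.96 to 4.06 and 3.12 to 3.48 in nephritic and untreated NEMO knockouts. They were 2.55 to 3.19 and 2.10 to 3.21 in nephritic and untreated IKK2 knockouts, and -0.24 to 2.90 in nephritic Cre controls. Nephritic NEMO knockouts were thus highest, as for the mitosis genes. Summed dendritic signal was 211 to 212 and 216 to 222 in nephritic and untreated NEMO knockouts, against 211 to 302 in untreated Cre controls. The per-array median of CD8 T and NK cell markers was 1.75 and 1.53 in nephritic and 1.51 and 1.32 in untreated NEMO knockouts. It was 0.57, 0.67 and 0.42 in nephritic and 0.49, 0.45 and 0.49 in untreated IKK2 knockouts, and 0.07, 0.57 and 0.40 in nephritic Cre controls. By this median the markers were highest in the NEMO knockouts, as the mitosis genes were. Their summed signal was 51.1 to 53.8 and 33.4 to 51.1 in nephritic and untreated NEMO knockouts, and 17.5 to 34.8 and 31.8 to 48.7 in IKK2 knockouts. By the sum, the untreated NEMO and IKK2 knockouts thus overlapped. In nephritic and untreated Cre controls it was 16.3 to 32.1 and 14.4 to 16.8. Against IKK2 knockouts, 5 of 8 were higher and 2 lower in nephritic NEMO knockouts (median 1.34), and 2 were higher and 2 lower in untreated ones (median 0.35). Of all genes, 19.0% were higher and 27.1% lower with nephritis, and 15.4% and 19.9% without. The part of these cells in the mitosis gene differences was not tested.

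**Figure D5:**
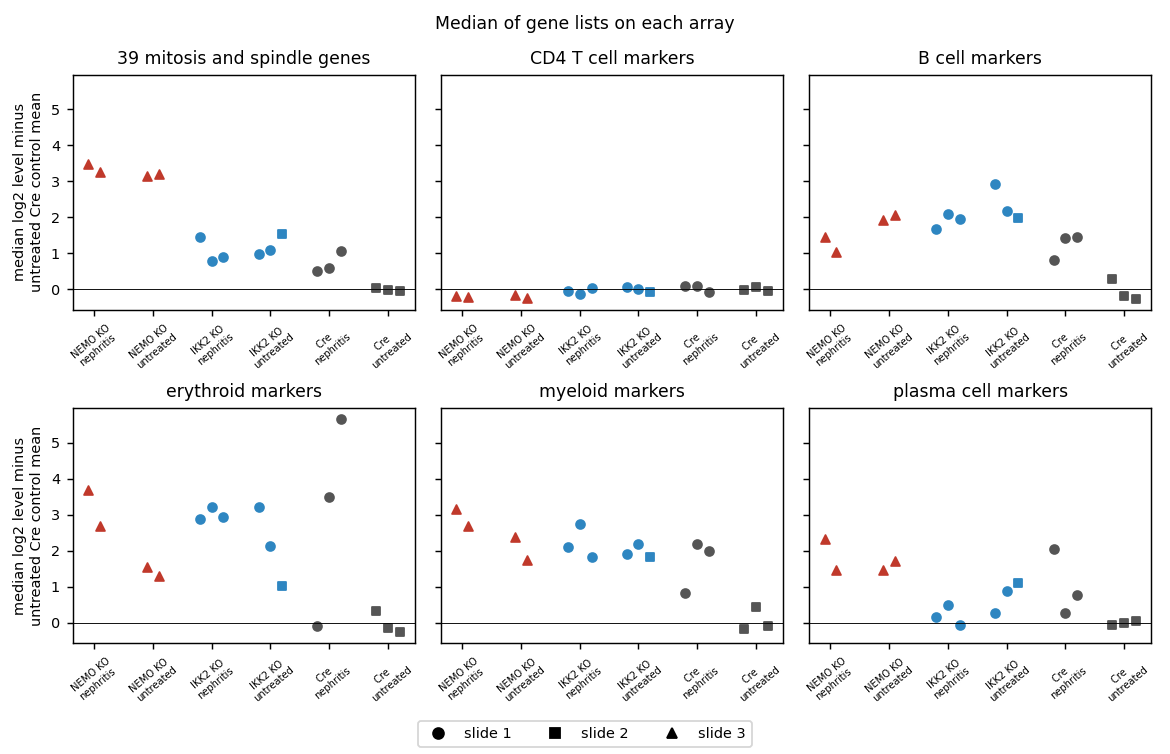
Median log2 level of each gene list on each array, relative to the mean of the untreated Cre controls (y axis, the same in all panels), by group (x axis); red is NEMO knockout, blue IKK2 knockout, grey Cre control, and the symbol gives the slide. The mitosis genes reach 3.16 to 3.49 on the 4 NEMO knockout arrays, where CD4 T cell markers lie between -0.24 and -0.16 and B cell markers between 1.03 and 2.05, against 1.66 to 2.93 on the IKK2 knockout arrays.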

How the data were processed

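The authors deposited the scanner output of 16 arrays with spot intensity on a linear scale, as the processed signal of Agilent Feature Extraction (10.7.3.1 per the file headers, 10.5 per the submitters' processing notes). They also deposited a matrix of log2 values, made by a method not given in the sources used here and serving as an alternative only; its column medians were 5.65 to 5.68 and its columns correlated at 0.994 to 0.999 with the log2 spot median, which sets its scale, while its treatment of background stays unknown. Outlier spots (103 to 246 per array) were left out and none was saturated. Log2 processed intensity minus each array's 75th percentile was used, for the 34938 probes that 2 or more arrays showed well above background. RefSeq accessions named 27235 of 55681 probes with 1 gene (28446 unnamed) through a GRCm38.p6 table, while headers name mm9. A gene was its brightest probe. Among 85 called results with another probe, 81 agreed in sign, and 71 of these also passed on the other probe. Group means were fitted to all arrays with limma 3.58.1 (R 4.3.3; two-sided, 11.8 degrees of freedom, Benjamini-Hochberg over 14675 genes, threshold 0.05). Python 3.11.15, pandas 2.3.3 and matplotlib 3.10.9 made tables and plots. The fit was tested on simulated data. The members and lists were chosen with earlier results of these data known. All members could be named; from other lists, the 3 largest called differences in each direction; full values went to each role's extremes and 7 preset genes. No mean spot signal was used here, so the normexp alternative (offset 50) started from the spot median. Other alternatives were quantile scaling, other filters, probe means, slide and replicate blocks, and single arrays left out. Precision is limited by the few arrays (2 or 3) in each group.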

Additional observations from a re-analysis of the deposited data

Results flagged for a closer look

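The effect of nephritis differed between IKK2 knockouts and Cre controls for 2 genes of the wider mitosis list, by the test of the difference of responses (limma, adjusted over all 14675 genes). Smc2, a condensin subunit gene, had a nephritis difference of -0.19 in IKK2 knockouts against 0.55 in Cre controls, and the difference of these was -0.74 ± 0.13 (SE, adjusted p = 0.0381). Cdkn3, the gene of a phosphatase that acts on cyclin-dependent kinases, had -0.21 in IKK2 knockouts against 0.79 in Cre controls, a difference of -0.995 ± 0.21 (adjusted p = 0.0491). In NEMO knockouts the values were 0.22 and 0.18. The Cre control arrays of the 2 conditions lay on different slides, whose part was not tested for these genes.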

How the results depend on the processing

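No called difference changed sign under any alternative, and over the alternatives called members still passed in 2818 repeats and not in 255. In NEMO knockouts against Cre controls, 33 to 36 members were higher with nephritis and 33 to 37 without it, with medians of 1.95 to 2.78 and 2.02 to 3.23. Leaving out single arrays gave 36 to 36 in both, 26 to 29 for untreated IKK2 knockouts, 36 to 37 and 34 to 37 for NEMO against IKK2 knockouts with and without nephritis, and 1 to 13 for nephritis in Cre controls. For the response in IKK2 knockouts minus that in Cre controls it gave 0 to 3 lower, with 3 without nephritic IKK2 knockout replicate 1 and 1 without nephritic Cre control replicate 1. The untreated IKK2 count was 10 on slide 2 alone, and the median ranged over 0.68 to 1.54. With nephritis it was 1 with the filter of at least 8 arrays (35 members tested) and 1 with slide as a random block. Nephritis in Cre controls, with 12 members, gave 3 with normexp, 2 with a percentile over fully detected probes and 5 in the deposited matrix. Of all genes, 0.566%, 1.52% and 0.954% were higher in these fits. The count was 2 with no filter, 0 with only the arrays compared and 0 with slide as a block. There 0.702%, 0% and 0.0136% of all genes were higher. With slide as a random block the count was 0, and without untreated replicate 1 and nephritic replicate 2 it was 1. The shares of all genes were 0.116% and 0.279%. The cause was not tested. The response difference gave 1 lower with probe means. Replicate numbers do not pair the samples (same-numbered arrays deviated with correlations of -0.20 to 0.13). With a replicate block the counts were 36, 36, 32, 37 and 37 in the knockout comparisons and 8 for nephritis in Cre controls, and no other call changed. For nephritis in Cre controls 1.83% of all genes were higher in that fit. Ttk, Aurkb and Cdc25c lie near background, which limits them to bounds.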

Other observations

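Some genes that restrain the cycle were higher and others lower in the same arrays. Among 11 CDK inhibitors and antiproliferative genes, 5 were higher and 3 lower in nephritic NEMO knockouts, 4 and 2 in untreated ones and 2 and 1 in untreated IKK2 knockouts. Of all genes, 18.8% were higher and 29.6% lower, 21.0% and 22.0%, and 10.0% and 4.52% in these comparisons. The lower counts in NEMO knockouts were thus near the share of all genes. Cdkn2a, the gene of p16INK4a and p19ARF, was at least 19.98-fold higher in nephritic NEMO knockouts and at least 2.79-fold higher in nephritic IKK2 knockouts than in nephritic controls, which were not well above background (adjusted p = 1.96e-05 and 0.0235). It was also higher in untreated NEMO and IKK2 knockouts (adjusted p = 2.23e-05 and 0.00633), where 1 of 3 untreated control arrays was well above background and the fitted sizes are not given. Cdkn2b, its neighbour, was at least 5.42-fold higher in nephritic NEMO knockouts. Cdkn1a, the gene of p21, was higher by 2.14 and 2.50 in nephritic and untreated NEMO knockouts and by 2.39 in untreated IKK2 knockouts. Cdkn1c, the gene of p57, was lower, with log2 differences of -1.11, -1.51 and -1.13 in the same comparisons, and Btg1 likewise, with -0.61 and -0.43 in the NEMO knockouts.

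Of 15 DREAM, MuvB and E2F repressor genes, 6 were higher and 1 lower in nephritic NEMO knockouts, 6 higher and none lower in untreated ones, and 3 higher and 1 lower in untreated IKK2 knockouts. The shares of all genes were 18.8% higher and 29.6% lower, 21.0% and 22.0%, and 10.0% and 4.52%. The E2F repressor genes E2f7 and E2f8 led, at 3.75 ± 0.36 and 3.43 ± 0.30 in untreated NEMO knockouts, followed by Mybl2, the gene of B-MYB, at 1.76 ± 0.17. In untreated IKK2 knockouts they stood at 1.69, 1.46 and 0.80. The pocket protein gene Rbl1 was lower in nephritic NEMO knockouts (-0.30) and Tfdp2 in untreated IKK2 knockouts (-0.37).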
